A study of Homo sapiens with 4 samples.

Results

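The BCL2 family decides whether a cell under stress keeps its outer mitochondrial membrane closed. Anti-apoptotic members such as BCL2, BCL2L1 (BCL-XL), MCL1 and BCL2A1 hold the effectors BAK1 and BAX in check, whereas the BH3-only members, among them BCL2L11 (BIM), BID, PMAIP1 (NOXA), BIK and BMF, sense stress and either block the anti-apoptotic members or activate the effectors. Open effectors release cytochrome c, which activates caspases. Paclitaxel, a taxane that stabilizes microtubules and arrests cells in mitosis, is known to kill cells largely through this family. Here 10 of its genes were followed by gene name (BCL2, BCL2L1, MCL1, BCL2A1, BAK1, BCL2L11, BID, PMAIP1, BIK and BMF), out of 26485 gene names in the tables. BAX and BBC3 were left out by the rule that chose the genes.

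SW1736 and 8505C are established human cell lines derived from anaplastic thyroid cancer (ATC). The PTX cells, SW1736-PTX and 8505C-PTX, were made from these wt lines by raising paclitaxel from 1 nM to 1.5 µM over 6 months, and were then kept in 1.5 µM of the drug. The comparison of PTX with wt cells asks which mRNAs differ once cells grow in paclitaxel, and since PTX cells were grown in paclitaxel, acquired resistance and the presence of the drug cannot be told apart. One mRNA library was sequenced per group, 4 in all, so no difference below could be set against the spread between cultures and no p-value was computed. The estimated depth lay between 43.5 M and 57.9 M reads, with the shallower library of each line being wt.

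Levels are given as FPKM (aligned fragments per kilobase of transcript, scaled to the depth of the library), which allows genes of different length to be compared. A change is log2((FPKM + 0.1)/(FPKM + 0.1)), called the log2 fold change, and the added 0.1 understates the change of genes of low FPKM. Genes were compared where either library of a pair exceeded 0.5 FPKM, and a gene is named higher or lower where the log2 fold change was above 1.5 or below -1.5.

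The library labelled SW1736-PTX stood apart from its label. Across 14692 genes, which are not independent replicates, its Pearson's r on log2(FPKM + 0.1) was 0.767 with SW1736 wt, 0.873 with 8505C wt and 0.933 with 8505C-PTX, whose own r with 8505C wt was 0.877. Of 148 genes above 5 FPKM in 8505C wt and below 0.5 in SW1736 wt, 132 were above 1 FPKM in it and 137 in 8505C-PTX, against 40 and 31 of 145 genes chosen the other way round. The thyroid factor PAX8 was at 38.2 FPKM in SW1736 wt and between 0.123 and 0.206 in the other 3 libraries, NKX2-1 was listed at 0 in SW1736 wt and was at 30.5 or more in the others, and TSHR and SLC5A5, genes of differentiated thyroid cells, were listed at 0 in all 4. The keratins KRT8 and KRT18 were above 250 FPKM in all libraries, EPCAM and CDH1 were below 0.1, and KRT19 was at 266 FPKM in SW1736 wt and at 0.535 or less in the others. Of the leukocyte markers, PTPRC and CD3E were below 0.02, and CD68, which is not restricted to leukocytes, had 5.84 (SW1736 wt), 23.6 (SW1736-PTX), 21.7 (8505C wt) and 43.0 FPKM (8505C-PTX). The fibroblast markers summed to 154 FPKM in SW1736 wt, nearly all of it COL1A1, and to between 0.335 and 8.35 in the others, with DCN and LUM below 0.3 throughout. PDGFRB went the other way, at 0.402 (SW1736 wt), 6.08 (SW1736-PTX), 0.0922 (8505C wt) and 6.49 FPKM (8505C-PTX). The part of these differences in the results was not tested. Whether cells or libraries of the lines were exchanged or mixed was not tested, so a value of the SW1736 pair may not be a change within 1 line. For this reason, each value of the library labelled SW1736-PTX is given against SW1736 wt and also against 8505C wt. The latter comparison shares its wt library with that of 8505C-PTX, so these comparisons are not independent of each other.

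The promoters of 3 members are shown, because BCL2L11 and BMF were higher in the SW1736 pair, the 8505C pair and SW1736-PTX against 8505C wt, and BCL2A1 was lower in both comparisons with 8505C wt. They are the 250 bases before and 50 after a RefSeq gene start (GRCh38.p14), the one nearest the start listed in the tables, read 5′ to 3′ on the strand of the gene. The letters searched on both strands were GGGCGG for the GC box, CCAAT for the CCAAT box, TATAAA for the TATA box, TGTTTAC for the FOXO core, TGACGT for the CRE core and CACGTG for the E-box, beside the NF-κB site, and capitals mark each match.
BCL2L11 lies on the plus strand at chr2:111120664-111120963.
BCL2L11: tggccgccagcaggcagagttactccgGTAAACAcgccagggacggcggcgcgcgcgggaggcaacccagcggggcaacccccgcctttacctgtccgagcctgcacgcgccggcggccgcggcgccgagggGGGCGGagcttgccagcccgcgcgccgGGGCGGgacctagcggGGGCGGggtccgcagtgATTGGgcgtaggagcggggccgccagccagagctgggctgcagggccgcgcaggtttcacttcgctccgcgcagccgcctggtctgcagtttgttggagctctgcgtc
BMF lies on the minus strand at chr15:40108830-40109129.
BMF: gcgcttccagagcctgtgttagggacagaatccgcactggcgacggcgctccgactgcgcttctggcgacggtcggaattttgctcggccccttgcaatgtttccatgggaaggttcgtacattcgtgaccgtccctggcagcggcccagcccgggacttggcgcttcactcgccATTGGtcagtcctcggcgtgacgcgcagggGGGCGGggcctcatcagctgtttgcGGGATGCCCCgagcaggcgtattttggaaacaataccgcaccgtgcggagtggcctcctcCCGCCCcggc
BCL2A1 lies on the minus strand at chr15:79971147-79971446.
BCL2A1: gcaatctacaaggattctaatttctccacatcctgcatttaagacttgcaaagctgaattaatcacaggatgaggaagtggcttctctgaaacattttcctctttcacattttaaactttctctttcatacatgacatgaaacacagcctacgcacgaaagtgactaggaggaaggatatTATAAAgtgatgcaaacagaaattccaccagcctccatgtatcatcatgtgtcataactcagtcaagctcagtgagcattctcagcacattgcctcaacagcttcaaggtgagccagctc
No motif in these 3 sequences overlapped another kind. The BCL2L11 promoter was the richest in G and C, at 74.7%, with 39 CpG dinucleotides, followed by that of BMF at 65% with 31, whereas that of BCL2A1 held 41% with 2, and the median of 35116 RefSeq promoters of the same length was 58.7%. BCL2L11 had 3 GC boxes and BMF 2, a motif present in 45.0% of all promoters and in 5 of the 8 members with an entry. The FOXO core, in 3.42% of all promoters, matched in BCL2L11 alone among these 8, and the NF-κB site, in 11.3% of all promoters, matched in BMF alone. The TATA box, in 11.5% of all promoters, matched in BCL2A1 alone (bases 181 to 186). The listed start of BCL2A1 lay 105 bases before this RefSeq start, so the match lies after the listed start. The CCAAT box, in 34.6%, matched in BCL2L11, BMF and BAK1, the CRE core, in 7.98%, in PMAIP1, and the E-box, in 7.26%, in none of the 8. A match is a description of the letters and was not tested as a binding site.

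In the SW1736 pair (PTX against wt), 9 of the 10 genes could be compared. BCL2L11, BIK and BMF were higher and BID was lower in the library labelled SW1736-PTX, so 4 of 9 (44.4%) passed the limits, beside 25.9% of the 14202 genes compared. Higher calls made up 15.7% of all genes and lower calls 10.2%. The median log2 fold change of the 9 was 0.33, beside 0.01 for all genes. In the 8505C pair, 9 genes were compared as well, BCL2L11 and BMF were higher and BCL2A1 was lower. These 3 of 9 (33.3%) stand beside 20.9% of 13794 genes, with 15.0% higher and 5.89% lower, and the median was -0.14, beside 0.11 for all genes. When the library labelled SW1736-PTX was set against 8505C wt, all 10 genes were compared and BCL2L11 and BMF were higher and BCL2A1 lower, 3 of 10 (30%), beside 20.4% of 13824 genes (15.1% higher, 5.23% lower). With so few genes, no share was tested against that of all genes.

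**Figure D1:**
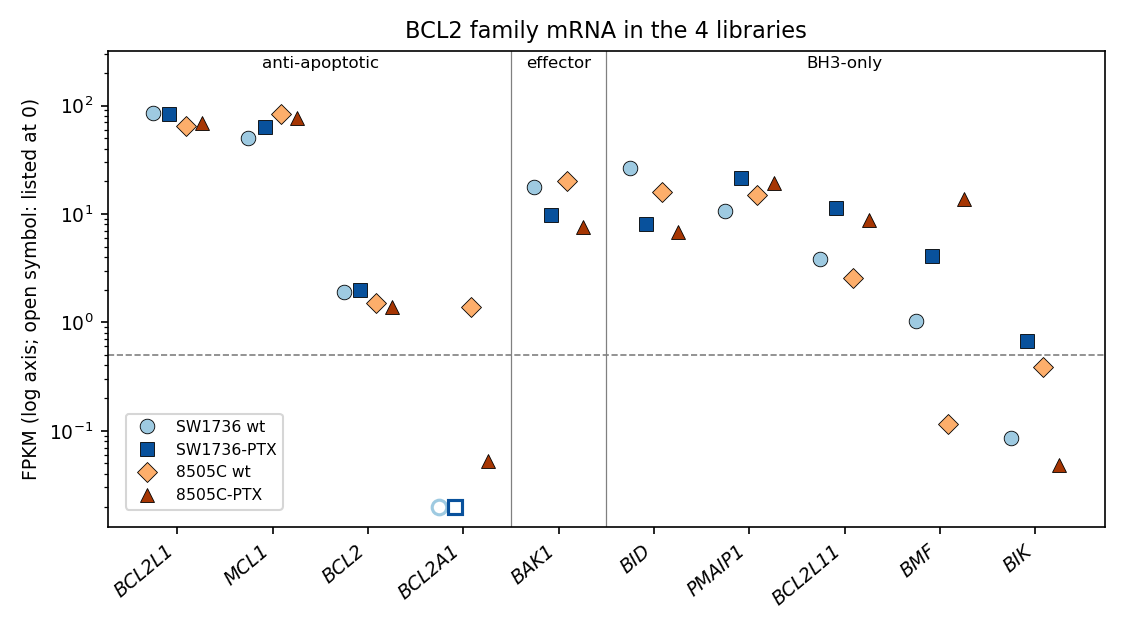
FPKM (log axis) of the 10 BCL2 family genes in each of the 4 libraries, grouped by role, with 1 library per symbol and a dashed line at 0.5 FPKM. BCL2L1 and MCL1 lie between 49.9 and 85.1 FPKM in every library, the PTX symbols of BID and BAK1 lie below both wt symbols, and those of BCL2L11 and BMF above.

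Among the anti-apoptotic genes, BCL2L1 and MCL1 carried most of the mRNA. BCL2L1 (chromosome 20, 31664458 to 31722853, minus strand, hg38) had an FPKM of 85.1 (SW1736 wt), 84.2 (SW1736-PTX), 64.8 (8505C wt) and 68.5 (8505C-PTX). Its log2 fold change was -0.016 in the SW1736 pair and 0.079 in the 8505C pair, the smallest of any member compared in both pairs. The antisense gene ABALON overlaps BCL2L1 at its 5′ end and was listed at 26.5 to 37.5 FPKM, and since the counting is not stated to use strand, reads of the overlap cannot be told apart. BCL2L1 also encodes a long anti-apoptotic and a short pro-apoptotic protein through splicing, and the tables do not separate them.

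MCL1, a short-lived protein that mitotic arrest depletes, lies on chromosome 1 (150574551 to 150579738, minus strand). The 8505C wt and 8505C-PTX libraries held 83.9 and 76.3 FPKM, and those labelled SW1736 wt and SW1736-PTX held 49.9 and 62.8. The 8505C libraries were thus above the SW1736 libraries, by 1.68-fold between the wt libraries, and the log2 fold changes of 0.33 and -0.14 had opposite signs. Against 8505C wt, the library labelled SW1736-PTX had a value of -0.42.

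BCL2, the founding member (chromosome 18, 63123346 to 63319380, minus strand), had low FPKM values of 1.91 (SW1736 wt), 2.01 (SW1736-PTX), 1.52 (8505C wt) and 1.37 (8505C-PTX), between the 11.8th and 17.7th percentile of the genes above 0.5 FPKM. Its log2 fold changes were 0.065 and -0.14. With the deposited coverage, divided by depth, in place of FPKM, the first became -0.057, so the sign of this small value depends on the unit.

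BCL2A1, an NF-κB target best known in blood cells (chromosome 15, 79960890 to 79971301, minus strand), was listed at 0 in SW1736 wt and in SW1736-PTX, at 1.38 FPKM in 8505C wt and at 0.0528 in 8505C-PTX. Only 8505C wt was above 0.5 FPKM. From the coverage, these values rest on about 0, 0, 44 and 2 reads. The reads per depth were 27.1-fold lower in 8505C-PTX than in 8505C wt (95% counting interval 7.06 to 231). On FPKM with 0.1 added, which understates this change, the log2 fold change was -3.27. It was -3.88 for the library labelled SW1736-PTX against 8505C wt. A count of 0 allows up to 3 reads (a one-sided 95% limit, whereas the intervals are two-sided), or 0.0786 FPKM at the depth of SW1736 wt and 0.0664 at that of SW1736-PTX. These intervals and floors cover counting error only, and PCR copies are not independent molecules.

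The composition of the anti-apoptotic mRNA was computed over BCL2, BCL2L1, BCL2L2, MCL1 and BCL2A1, as shares that do not depend on the scaling of a library. Their FPKM summed to 150 (SW1736 wt), 162 (SW1736-PTX), 167 (8505C wt) and 161 (8505C-PTX). BCL2L1 and MCL1 together held 89.2% to 91.0% of it in each library. MCL1 held 33.2% and BCL2L1 56.7% in SW1736 wt, and 38.9% and 52.1% in SW1736-PTX. In 8505C wt they held 50.3% and 38.9%, and in 8505C-PTX 47.4% and 42.5%. The ratio of MCL1 to BCL2L1 was therefore below 1 in both SW1736 libraries (0.586 and 0.746) and above 1 in both 8505C libraries (1.30 and 1.11). For this ratio the library labelled SW1736-PTX was on the side of SW1736 wt.

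**Figure D2:**
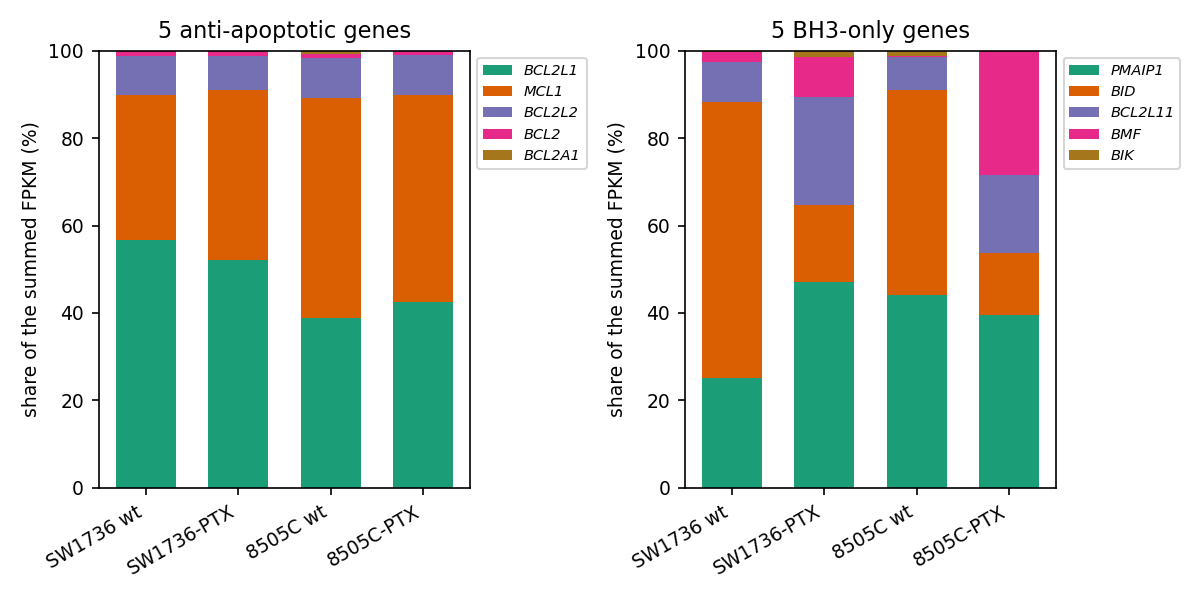
Stacked bars of the share (%) of each gene in the summed FPKM of 5 anti-apoptotic genes (left) and of 5 BH3-only genes (right), 1 bar per library. The left bars are held by BCL2L1 and MCL1 in every library, and in the right bars BMF with BCL2L11 hold 11.6% and 7.94% in the wt libraries and 33.9% and 46.3% in the PTX libraries. BMF and BCL2L11 were paired after both had been called higher.

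BAK1, the effector that sits in the mitochondrial membrane (chromosome 6, 33572546 to 33580293, minus strand), read 17.7 FPKM for SW1736 wt and 20.3 for 8505C wt, against 9.83 for SW1736-PTX and 7.64 for 8505C-PTX. Both PTX libraries were below both wt libraries. The FPKM was 1.80-fold lower in the SW1736 pair and 2.66-fold lower in the 8505C pair, log2 fold changes of -0.84 and -1.40 that did not reach the limit of -1.5. After centring on the median of all genes in the 8505C pair, which lies 0.11 above 0, the second value was -1.51, just past it. Against 8505C wt, the library labelled SW1736-PTX was 2.07-fold lower (-1.04).

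BID, which links death receptors to mitochondria after its cleavage by caspase 8 (chromosome 22, 17734140 to 17774665, minus strand), followed the same order. The wt libraries held 26.7 (SW1736) and 15.9 FPKM (8505C), the PTX libraries 8.0 (SW1736) and 6.87 (8505C), and both PTX libraries were again the lowest. The 3.33-fold lower value in the SW1736 pair (log2 fold change -1.72) passed the limit, and the 2.31-fold lower value in the 8505C pair (-1.20) did not. The SW1736 call was lost when the library labelled SW1736-PTX was set against 8505C wt, at 1.98-fold lower (-0.98).

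BCL2L11 encodes BIM, a BH3-only protein that binds all anti-apoptotic members and that has been tied to the killing of cells by taxanes. It lies on chromosome 2 (111120914 to 111168445, plus strand), and its GC-rich promoter with the FOXO core is printed above. SW1736 wt and 8505C wt had 3.85 and 2.57 FPKM, whereas SW1736-PTX and 8505C-PTX had 11.4 and 8.81. Both PTX libraries were above both wt libraries. The increase was 2.97-fold in the SW1736 pair and 3.42-fold in the 8505C pair, log2 fold changes of 1.54 and 1.74, and 4.43-fold (2.11) for the library labelled SW1736-PTX against 8505C wt. The SW1736 value lay just past the limit of 1.5, and with a pseudocount of 1 both fell below it (1.36 and 1.46). FPKM sums the transcripts of a gene, and for BCL2L11 the ratio of coverage to FPKM was only 20.5% to 23.2% of that of a gene with 1 transcript, so its FPKM leans on how reads were assigned to transcripts of unequal length. On the deposited coverage divided by depth, the log2 fold changes were 1.63 and 1.58.

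BMF, a BH3-only protein that is held on the actin cytoskeleton and freed when cells detach or are stressed, had the widest range of the 10 genes. It lies on chromosome 15 (40087891 to 40108884, minus strand). Its FPKM went from 1.04 to 4.13 between SW1736 wt and SW1736-PTX and from 0.115 to 13.9 between 8505C wt and 8505C-PTX, so the order of the lines was opposite in wt and PTX cells. From the coverage, these values rest on about 233, 1094, 23 and 3409 reads. The reads per depth rose 3.97-fold in the SW1736 pair (95% counting interval 3.44 to 4.59) and 120-fold in the 8505C pair (80.1 to 190). The log2 fold changes were 1.90 and 6.02, and the latter ranged from 3.74 with a pseudocount of 1 to 6.80 with 0.01. By reads per depth, the library labelled SW1736-PTX was 35.8-fold above 8505C wt (23.7 to 56.7). On FPKM with 0.1 added, its log2 fold change was 4.30. With a pseudocount of 1, the SW1736 value of 1.33 no longer passed the limit.

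PMAIP1 encodes NOXA, which binds MCL1 and promotes its degradation (chromosome 18, 59899960 to 59904306, plus strand). The 4 libraries held 10.6 (SW1736 wt), 14.9 (8505C wt), 19.4 (8505C-PTX) and 21.6 FPKM (SW1736-PTX). Both PTX libraries were above both wt libraries, by 2.04-fold and 1.30-fold in the pairs, log2 fold changes of 1.02 and 0.38 that stayed within the limit. Against 8505C wt, the library labelled SW1736-PTX had 0.53.

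BIK, a BH3-only protein of the endoplasmic reticulum (chromosome 22, 43110748 to 43129712, plus strand), was the rarest of the 5 BH3-only members in 3 of the 4 libraries. The FPKM was 0.0858 (SW1736 wt), 0.674 (SW1736-PTX), 0.390 (8505C wt) and 0.0486 (8505C-PTX), which correspond to about 4, 37, 16 and 2 reads. The reads per depth were 7.82-fold higher in the SW1736 pair (95% counting interval 2.81 to 30.2) and 9.84-fold lower in the 8505C pair (2.31 to 88.2). On FPKM with 0.1 added, the first was a call (log2 fold change 2.06). The second (-1.72) was not compared, because neither 8505C library was above 0.5 FPKM, and it was called lower when TPM replaced FPKM. Against 8505C wt, the library labelled SW1736-PTX was 1.74-fold higher, with an interval of 0.944 to 3.35 that includes no difference.

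**Figure D3:**
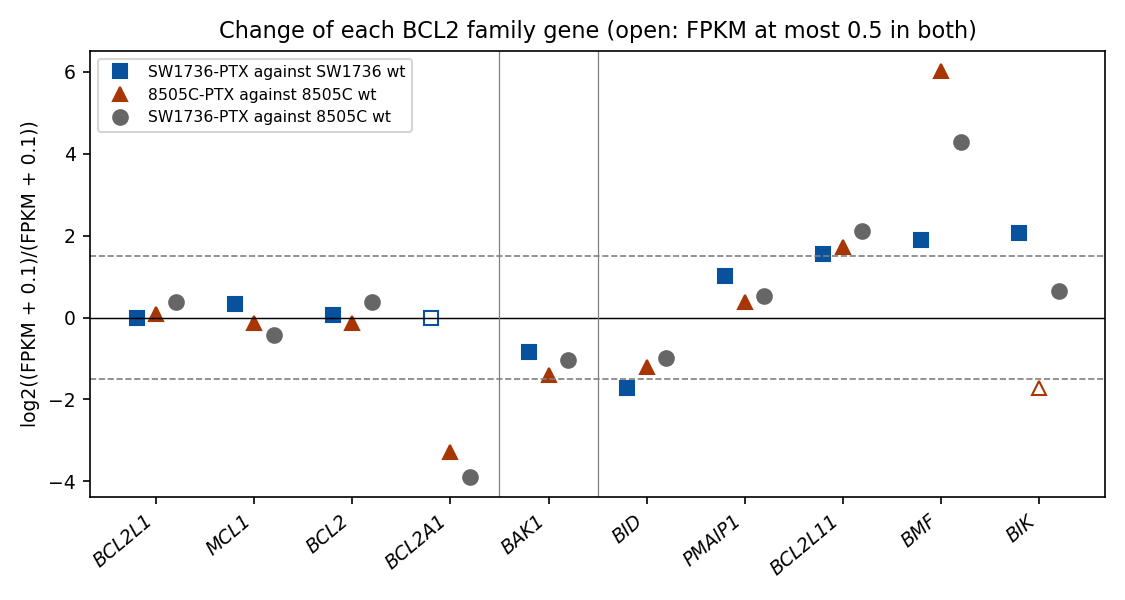
log2((FPKM + 0.1)/(FPKM + 0.1)) of the 10 genes for SW1736-PTX against SW1736 wt, 8505C-PTX against 8505C wt and SW1736-PTX against 8505C wt, with dashed lines at the limits of -1.5 and 1.5 and open symbols where neither library was above 0.5 FPKM. BCL2L11 and BMF lie above 1.5 in all 3 comparisons, BID and BAK1 lie below 0 in all 3, and BCL2L1, MCL1 and BCL2 stay between -0.42 and 0.38.

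Taking the 5 BH3-only genes as a group, a sum chosen after the values were seen, the FPKM summed to 42.2 (SW1736 wt), 45.8 (SW1736-PTX), 33.9 (8505C wt) and 49.0 (8505C-PTX), or 28.1%, 28.3%, 20.3% and 30.4% of the anti-apoptotic sum. With the BH3-only genes BAD and HRK added, an alternative chosen after seeing the data, the sums were 89.4, 118, 99.2 and 114 FPKM. These were 59.5%, 73.2%, 59.5% and 70.6% of the anti-apoptotic sum, so the total depends on which genes are summed. The shares that follow are of the 5 members. BID held 63.2% of it in SW1736 wt and 46.8% in 8505C wt, but 17.5% in SW1736-PTX and 14.0% in 8505C-PTX. BMF and BCL2L11 together held 11.6% (SW1736) and 7.94% (8505C) of it in wt libraries, and 33.9% (SW1736) and 46.3% (8505C) in PTX libraries. This pair was named after both genes had been called higher, so its larger share in PTX libraries restates those calls. It also leans on the FPKM of BCL2L11, with the limit given above. Among these 5, PMAIP1 had the highest FPKM in both PTX libraries, and BID in both wt libraries.

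Between the wt libraries, 9 genes were compared and 2 differed beyond the limits (22.2%, beside 17.6% of 13457 genes, 7.73% higher and 9.92% lower in 8505C wt). BMF was 9.01-fold lower in 8505C wt by reads per depth (95% counting interval 5.86 to 14.5), and BCL2A1 was listed at 0 in SW1736 wt, so no fold is given beyond the lower limit of its counting interval, 12.9. Between the PTX libraries, BMF was 3.37-fold higher in 8505C-PTX (3.15 to 3.61) and BIK 17.1-fold lower (4.42 to 147). These 2 of 9 genes (22.2%) stand beside 7.79% of 13986 genes, 3.70% higher and 4.09% lower. The other 7 genes compared between the PTX libraries had log2 differences between -0.52 and 0.28.

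The genes whose profiles were most like those of the 3 members with the widest range were sought by the Euclidean distance between centred log2(FPKM + 0.1) values over the 4 libraries. For BMF the nearest was MAP2, which encodes a microtubule-associated protein, at 0.351, 2.38, 0.0312 and 7.06 FPKM in SW1736 wt, SW1736-PTX, 8505C wt and 8505C-PTX (distance 0.49), then C10orf10 (0.99). For BCL2A1 they were STK26 (0.22) and CSF3 (0.50), the latter listed at 0 in all libraries but 8505C wt, where it was at 1.17 FPKM. For BIK they were VSTM1 (0.35) and SCARNA16 (0.38). With 4 libraries and 14692 genes, near matches of this kind are a description.

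The counts of called neighbours that follow stand beside 25.9% of all genes called in the SW1736 pair and 20.9% in the 8505C pair. No count of neighbours was tested against these shares. Within 1 Mb of BMF, 31 genes were compared in the SW1736 pair, 5 higher and 3 lower with a median of -0.34, and 29 in the 8505C pair, 5 higher and 3 lower with a median of 0.06. PLCB2 and CHAC1, the gene of a glutathione-degrading enzyme induced by the unfolded protein response, were higher in both pairs. PLCB2, a phospholipase gene, had 0.184 and 14.1 FPKM (SW1736 wt and SW1736-PTX) and 11.8 and 34.4 (8505C wt and 8505C-PTX), and was not called for the library labelled SW1736-PTX against 8505C wt (0.25). CHAC1 had 0.710 and 6.55, and 1.47 and 9.65 FPKM, in that order, log2 fold changes of 3.04 and 2.63, and stayed higher against 8505C wt (2.08). Within 1 Mb of BCL2L11, 2 of 9 genes were higher and 0 lower in the SW1736 pair (median -0.33), and 2 of 10 were higher and 2 lower in the 8505C pair (median -0.24). LIMS3L, which has near-identical copies so that its reads are uncertain, was higher in both. Around BID, 2 of 12 neighbours were higher and 0 lower in the SW1736 pair, and 1 of 11 higher and 0 lower in the 8505C pair. Around BCL2A1, 0 of 10 were higher and 3 lower in the SW1736 pair (median -1.12), where BCL2A1 itself was listed at 0 in both libraries, and 0 of 9 were called in the 8505C pair (median -0.21).

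**Figure D4:**
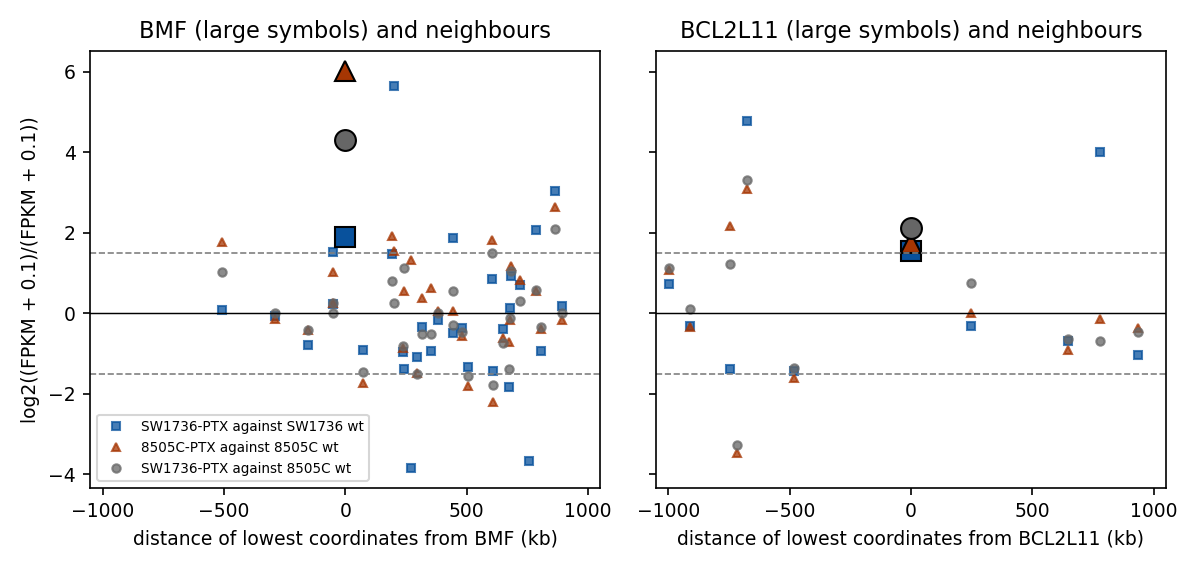
log2((FPKM + 0.1)/(FPKM + 0.1)) of genes within 1 Mb of BMF (left) and BCL2L11 (right) against their distance in kb, in 3 comparisons, with the member itself as the large symbol at 0 and dashed lines at -1.5 and 1.5. Neighbours scatter on both sides of 0, and BMF in the 8505C pair (6.02) lies above all of its neighbours in that pair. In the SW1736 pair BMF (1.90) lies below some neighbours, such as PLCB2 (5.65). BCL2L11 lies below LIMS3L in the SW1736 pair (1.54 and 4.77) and in the 8505C pair (1.74 and 3.08).

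Other genes of the pathway were taken from 6 lists. Of these, 11 of 48 compared were called in the SW1736 pair and 7 of 47 in the 8505C pair, beside 25.9% and 20.9% of all genes, so neither count exceeds the share over all genes. Of the 9 further family genes, 5 were compared in each pair and none was called in either, BCL2L2, BOK, BAD, BCL2L12 and BCL2L13, with log2 fold changes from -1.23 (BCL2L12 in the SW1736 pair) to 0.75 (BCL2L13 in the 8505C pair). The neuronal BH3-only gene HRK was listed at 0 in both wt libraries and was at 0.141 FPKM in SW1736-PTX and 0.478 in 8505C-PTX, below the FPKM limit for a comparison. With TPM in place of FPKM, or with no limit on low values, 1 gene of this list was called higher in the 8505C pair, HRK.

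Downstream of the family, CYCS, which encodes cytochrome c, and CASP2, a caspase linked to mitotic and p53 stress, were lower in both pairs. For CYCS the wt libraries had 56.2 (SW1736) and 41.6 FPKM (8505C) and the PTX libraries 13.2 and 8.78, log2 fold changes of -2.09 and -2.23, and it stayed lower for the library labelled SW1736-PTX against 8505C wt (-1.65). CYCS has many processed pseudogenes, so its reads are less certain. For CASP2 the wt libraries had 25.7 and 13.6 FPKM and the PTX libraries 4.90 and 4.40 (-2.37 and -1.61), and the library labelled SW1736-PTX was within the limit against 8505C wt (-1.46). Of the 9 genes of the caspases and apoptosome, 0 were higher and 3 lower in the SW1736 pair (median -0.29) and 0 higher and 2 lower in the 8505C pair (median 0.07). CASP10 had 1.16 FPKM in SW1736 wt, against 0.229 in SW1736-PTX (-1.94), and 0.265 in 8505C wt, against 0.684 in 8505C-PTX (1.11), and against 8505C wt the former call was lost (-0.15).

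Among the inhibitors of apoptosis (IAP) and their antagonists, 8 genes were compared in each pair, 2 higher and 0 lower in the SW1736 pair (median 0.15), and 1 higher and 1 lower in the 8505C pair (median 0.20). NAIP was higher in both, from 0.143 to 1.06 FPKM and from 0.164 to 1.23 (2.25 and 2.33), as against 8505C wt (2.14), and lies in a repeated region whose copies share reads. BIRC5, which encodes survivin and serves in cell division as well, had 78.0 FPKM in SW1736 wt and 115 in 8505C wt, and 37.2 and 38.1 in the PTX libraries, log2 fold changes of -1.07 and -1.59, with -1.63 for the library labelled SW1736-PTX against 8505C wt. BIRC3, an NF-κB target, had 1.14 and 3.54 FPKM in the SW1736 pair (1.56), 1.01 and 1.17 in the 8505C pair (0.19), and 1.72 as its log2 fold change against 8505C wt.

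Among the death receptors and adaptors, 11 genes were compared in the SW1736 pair, 2 higher and 3 lower (median 0.19), and 10 in the 8505C pair, 2 higher and 0 lower (median -0.08). Among them, CFLAR, which encodes the caspase 8 inhibitor FLIP, was higher (1.61) and the receptor gene FAS lower (-1.83) in the SW1736 pair, with 0.33 and -1.74 for the library labelled SW1736-PTX against 8505C wt, and both are named after their values were seen. The decoy receptor gene TNFRSF10C was listed at 0 in both wt libraries and was at 0.750 FPKM in SW1736-PTX and 1.77 in 8505C-PTX. TNFSF10, which encodes the ligand TRAIL, had its highest FPKM in 8505C-PTX (11.3), then SW1736 wt (4.78), SW1736-PTX (0.398) and 8505C wt (0.218), log2 fold changes of -3.29 and 5.17. The adaptor gene TRADD was at 11.5 FPKM in SW1736 wt and listed at 0 in the library labelled SW1736-PTX and in both 8505C libraries. Of the 9 listed genes whose proteins bind the family, 0 were called in the SW1736 pair (median 0.01). In the 8505C pair (median -0.65), 1 was lower, the channel gene VDAC3, at 96.7 and 29.3 FPKM (-1.72). The last list held enzymes that add ubiquitin to MCL1 or remove it, so its median pools opposite effects on MCL1. Of the 6 compared, 1 was lower in the SW1736 pair (median -0.30), the deubiquitinase gene USP13. USP13 had 10.2 and 2.84 FPKM (-1.81, and -1.61 against 8505C wt). In the 8505C pair, 0 of the 6 were called (median -0.27).

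**Figure D5:**
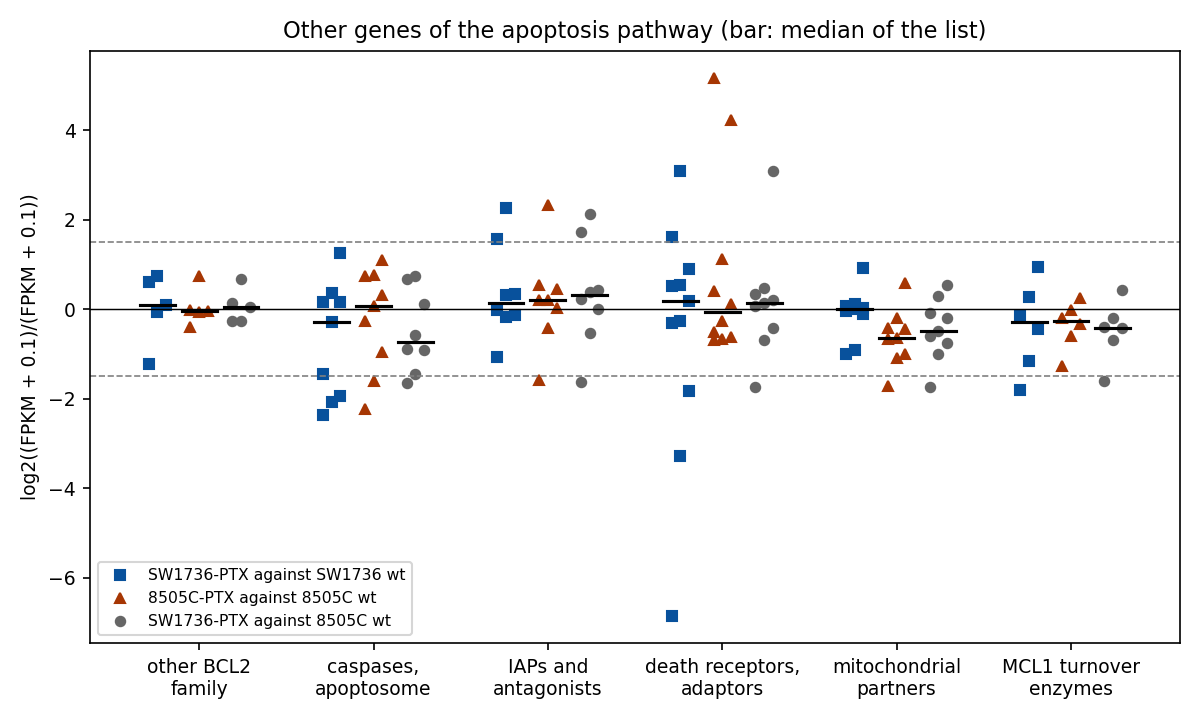
log2((FPKM + 0.1)/(FPKM + 0.1)) of the compared genes of 6 lists in 3 comparisons, 1 symbol per gene, with a bar at the median of each list and dashed lines at -1.5 and 1.5. Of 48 genes compared in the SW1736 pair 4 were higher and 7 lower, and of 47 in the 8505C pair 3 were higher and 4 lower, beside 25.9% and 20.9% of all genes called.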

How the data were processed

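The RNA of 1 library per group (SW1736 wt, SW1736-PTX, 8505C wt and 8505C-PTX) was sequenced in single-end mode with reads of 75 bp. The authors used bcl2fastq 2.20 to convert and demultiplex the raw data, Cutadapt for adapters, ERNE for quality trimming, STAR for alignment to hg38 and StringTie for abundance; the annotation is not given in the sources used here. For each gene the deposited tables hold the mean coverage per base, left unscaled by the authors, the FPKM summed over transcripts, and the TPM, which the authors' tool scaled to an equal total per library. No counts are given, so no count model was used.

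The FPKM of rows of 1 gene name were summed, and the limits (FPKM above 0.5, log2 fold change beyond 1.5) are those of the study's methods; the pseudocount of 0.1 and the use of at least 1 library were chosen here. Depth was the 99th percentile of coverage over FPKM among genes of at least 1 FPKM, and reads were estimated as coverage times the length of the MANE transcript (GENCODE release 44) over 75. Counting intervals were exact (Poisson for reads, Clopper-Pearson for ratios), at 95%. All 10 members were named, with pathway genes called in both pairs, up to 3 further called genes per list and pair, the 2 nearest profiles of 3 members and up to 2 neighbours per member called in both pairs. The members and lists were chosen with earlier results of these data known. Alternatives changed the pseudocount, the FPKM filter, the centring, the unit, the limits, the wt library and how repeated names were handled. The script was tested on simulated data. Promoters are from RefSeq, with an entry for 8 of the 10 members, and protein sequences were not used here. One marker gene is not reported here. Python 3.11.15, NumPy 2.4.6, pandas 2.3.3, SciPy 1.17.1 and matplotlib 3.10.9 were used.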

Additional observations from a re-analysis of the deposited data

Results flagged for a closer look

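Results are listed here where the SW1736 pair and the 8505C pair went opposite ways. With 1 library per group, none of these differences was tested, and the SW1736 pair rests on the library labelled SW1736-PTX, which was closer to 8505C wt than to SW1736 wt.

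For 3 anti-apoptotic genes the opposite signs belong to small values, with log2 fold changes of 0.065 and -0.14 for BCL2, -0.016 and 0.079 for BCL2L1 and 0.33 and -0.14 for MCL1, in the SW1736 and the 8505C pair. For BIK they were 2.06 and -1.72, on about 4 and 37 reads and on about 16 and 2 reads. For the initiator caspase gene CASP10 they were -1.94 and 1.11. For TNFSF10, the gene of TRAIL, they were -3.29 and 5.17, and the library labelled SW1736-PTX (0.398 FPKM) was near 8505C wt (0.218 FPKM) for this gene.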

How the results depend on the processing

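With 1 library per group there was no replicate to leave out, and no replicates within a line to pair. A fit of treatment with the cell line as a block, which would take the lines as replicates of each other, was not run. Coverage in place of FPKM, and 8505C wt in place of SW1736 wt, were chosen after seeing the data. A pseudocount of 1 left 1 member called in the SW1736 pair (BID), 1 in the 8505C pair (BMF), 0 between the wt libraries and 1 between the PTX libraries. It left 5 genes of the 6 pathway lists called in the SW1736 pair and 4 in the 8505C pair, in place of 11 and 7. Over all genes, 1222 were then higher and 841 lower in the SW1736 pair, in place of 2236 and 1445 of 14202. In the 8505C pair, 969 were higher and 473 lower, in place of 2068 and 812 of 13794. Between the wt libraries 544 were higher and 639 lower, in place of 1040 and 1335. Between the PTX libraries these were 230 and 233, in place of 518 and 572. An FPKM above 0.5 in both libraries left 1 member in the 8505C pair (BCL2L11), 0 between the wt and 1 between the PTX libraries. It left 6 and 4 pathway genes in the SW1736 and the 8505C pair. Fewer genes are compared there by construction. Over all genes, 850 were then higher and 851 lower of 11807 in the SW1736 pair. In the 8505C pair, 1018 were higher and 591 lower of 12019. Between the wt libraries these were 329 and 567 of 11515, and between the PTX libraries 231 and 282 of 12864. A limit of 1 gave 5 members in the 8505C pair (BAK1 and BID added, both lower), and 17 and 12 pathway genes. Over all genes, this limit called 3141 higher and 2591 lower in the SW1736 pair, and 3108 and 1784 in the 8505C pair. A limit of 2 left 1 member in the SW1736 pair (BIK), 1 between the PTX libraries, and 6 and 4 pathway genes. Over all genes, it left 1740 higher and 875 lower in the SW1736 pair, and 1424 and 375 in the 8505C pair. Between the PTX libraries it left 332 and 336. Calls over all genes thus moved with each of these settings as well. The other 72 values of the main results stayed within 1.5 times (or 1.5-fold) of those reported, among them the medians of the members and the share of MCL1. Some of them could not move. Each member has 1 row, so the handling of repeated names leaves it unchanged, and TPM rescales all shares of a library alike. For the medians, 1.5-fold is wider than the values themselves (0.33 and -0.14). The median of the 8505C pair ran from -0.09 to -0.24. A change of pseudocount, filter or limit cannot turn the sign of a value. The shifts from centring and TPM were smaller than any called value. With coverage, or with 8505C wt in place of SW1736 wt, a sign could have changed, and no called member changed it. Values of BIK and BCL2A1 are limited by depth, at about 0 to 44 reads.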
